A study of Mus musculus with 7 samples.

Results

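Later introns of genes held 6079 of the 39704 liver regions at which the nuclear receptor HNF4a was measured by chromatin immunoprecipitation with sequencing (ChIP-seq). A region was taken when its annotation named an intron of the same gene to which the region was assigned, and when that intron was number 2 or higher. The choice used position alone and no read value. The 6079 regions lay in 3268 genes, against 7633 regions in first introns, 4101 in an intron of a gene other than the assigned one and 5235 at promoters. Coordinates are those of mouse build mm10.

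The livers came from wild-type (WT) mice and from mice whose AMP-activated protein kinase (AMPK) was constitutively active (AMPK-CA). Mice of both genotypes had received doxycycline in a high-fat diet for 14 days, so no chow-fed or doxycycline-free group enters the comparison. There were 3 libraries per genotype, 1 of each in every labelled batch. The AMPK allele, its driver and the age of the mice are not given in the sources used here. Between 536027 and 1622087 reads per library fell in regions of any class. Of these, 12.2%, 15.7% and 15.2% lay in later introns in WT batches 1, 2 and 3, and 14.7%, 16.0% and 15.6% in AMPK-CA. At the median later-intron region this amounted to 22, 24 and 10 reads in WT and to 21, 19 and 13 in AMPK-CA. Over the later-intron regions the log2 values of WT batch 1 correlated with those of WT batches 2 and 3 at r = 0.47 and 0.58, where those 2 correlated at 0.73, so log2 differences without batch 1 are given beside many results below. Of 40 lipoprotein and plasma carrier genes of hepatocytes 37 had a region of any class, and of 46 genes that mark other liver cells 19 had one.

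HNF4a binds DNA as a homodimer, at sites made of a pair of short repeats, and keeps up the gene programme of hepatocytes for lipoproteins, bile acids, clotting factors and drug metabolism. Much of its binding lies away from promoters, at enhancers that can sit inside introns of the gene they act on or of a neighbour. AMPK is a kinase that responds to low cellular energy, shifts liver metabolism from synthesis to oxidation of fat and restrains the growth kinase mTOR. The comparison asks whether HNF4a occupancy at intronic regions differed between livers with normal and with constantly active AMPK.

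No genome sequence was used, so the bases of most regions cannot be shown, but some regions cover an annotated gene start whose upstream sequence RefSeq gives. Of the later-intron regions 79, or 1.30%, overlapped a window from 250 bases before to 50 after a RefSeq start, against 15.6% of first-intron regions. In 30 of the 79 the start belonged to the assigned gene, and in 49 to another gene only. The letters CAAAGTCCA, the centre of the HNF4 element, were sought on both strands and found in 3 of the 90 windows overlapped, or 3.33%, against 0.475% of all 32851 windows of that length and 0.767% of the 8606 windows under a region of any class. The short repeat unit AGGTCA was in 20% of the 90, against 16.3% of all windows, and the FOXA letters TGTTTAC in 3.33% against 3.65%. The CEBP letters TTGCGCAA, and the direct repeat of 2 such units with 1 base between, AGGTCANAGGTCA, which contains the unit, were in 0 of the 90, against 0.183% and 0.0396% of all windows. The 90 windows are few, and these matches of letters describe them and are no test.

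Each of the 3 windows with the HNF4 centre overlaps a later-intron region, and whether the element itself lies inside that region is not shown. The 3 sequences follow as the 250 bases upstream of the start, 5′ to 3′, with the element in capitals. They come from RefSeq, build GRCm38.p6, and the starts belong to genes of unstated function within introns of Per2, a clock gene, Adam12, a cell-surface protease, and Socs2, an inhibitor of growth hormone signalling. Each lies on the plus strand, at chr1:91442753-91443002, chr7:134022530-134022779 and chr10:95413852-95414101.
Gm35591 in Per2: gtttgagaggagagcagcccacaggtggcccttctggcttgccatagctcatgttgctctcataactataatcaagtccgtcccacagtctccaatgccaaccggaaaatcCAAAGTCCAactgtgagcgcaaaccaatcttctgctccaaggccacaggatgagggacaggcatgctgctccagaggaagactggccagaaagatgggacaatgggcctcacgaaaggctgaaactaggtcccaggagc
Gm39103 in Adam12: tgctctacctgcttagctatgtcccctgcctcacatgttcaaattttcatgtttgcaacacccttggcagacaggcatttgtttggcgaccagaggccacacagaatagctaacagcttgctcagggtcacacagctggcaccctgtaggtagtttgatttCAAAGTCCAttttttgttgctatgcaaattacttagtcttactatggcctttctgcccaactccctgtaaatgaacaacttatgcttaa
Gm33230 in Socs2: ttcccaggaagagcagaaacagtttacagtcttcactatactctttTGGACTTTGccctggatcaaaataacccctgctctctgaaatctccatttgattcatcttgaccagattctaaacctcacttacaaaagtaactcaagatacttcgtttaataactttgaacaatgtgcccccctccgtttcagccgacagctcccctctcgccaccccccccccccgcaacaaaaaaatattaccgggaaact

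The HNF4 centre begins at base 112 of the Per2 window, at base 162 of the Adam12 window and, read on the other strand, at base 47 of the Socs2 window. The region over the Per2 window, in intron 6, had 50.03, 74.1 and 52.1 normalized reads in WT batches 1, 2 and 3 and 70.0, 86.3 and 65.3 in AMPK-CA. The region over the Adam12 window, in intron 3, had 11.3, 41.2 and 19.8 in WT and 21.7, 45.6 and 30.6 in AMPK-CA. The region over the Socs2 window, in intron 2, had 8.67, 26.2 and 10.8 in WT and 14.5, 20.4 and 25.003 in AMPK-CA. With batches set aside the genotypes overlapped at all 3, and limma adjusted p was 0.815, 0.778 and 0.841. Within batches, the Per2 and Adam12 regions were higher in AMPK-CA in 3 of 3. The Socs2 region was higher in batches 1 and 3 and lower in batch 2.

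A start of the assigned gene itself lay under some of the strongest later-intron regions, ranked by reads not divided by length. Those in Slc6a13, Zyx and Fgfr3 were 2721, 3367 and 4329 bp long, where the median of the class was 492 bp. Per kb they had 68.2, 57.7 and 44.4 normalized reads, and the rest of the 10 strongest had 109 to 186. Slc6a13, which encodes a GABA and taurine transporter of liver, and Zyx, which encodes the adhesion protein zyxin, are shown because their regions are among the 10 strongest and hold the repeat unit. Fgfr3 is the third gene of the 10 whose region covers a start of its own, and neither of its 2 windows holds the repeat unit or the HNF4 centre. The upstream windows on the plus strand are chr6:121303389-121303638 and chr6:42349578-42349827, and each holds the repeat unit AGGTCA once, in capitals, read on the other strand in Slc6a13.
Slc6a13: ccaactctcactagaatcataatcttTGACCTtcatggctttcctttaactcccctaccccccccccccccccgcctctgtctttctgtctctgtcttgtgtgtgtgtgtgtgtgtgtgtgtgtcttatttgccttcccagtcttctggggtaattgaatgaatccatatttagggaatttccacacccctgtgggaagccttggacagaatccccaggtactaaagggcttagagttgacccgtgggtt
Zyx: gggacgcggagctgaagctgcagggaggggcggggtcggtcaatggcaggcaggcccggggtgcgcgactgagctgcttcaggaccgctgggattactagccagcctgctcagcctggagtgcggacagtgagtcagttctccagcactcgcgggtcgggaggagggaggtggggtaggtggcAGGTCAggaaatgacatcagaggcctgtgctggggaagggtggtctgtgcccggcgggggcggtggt

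The later-intron regions were spread over many genes and lay far from gene starts. Intron 2 held 2416 of them, or 39.7%, the median intron number was 3 and the highest was 83, and 501 lay in the last intron of the annotated transcript. The median distance to the assigned start was 22.9 kb, and the farthest region lay 1269.8 kb away, in Ptprd, a receptor phosphatase gene. Their median length was 492 bp, within a range of 201 to 4329 bp. Of the 3268 genes, 2029 held 1 such region, 620 held 2, 417 held 3 or 4, and 202 held 5 or more. A promoter region was also listed for 1210 of these genes and a first-intron region for 1292, while 634 genes had later-intron regions and no others. In 1604 genes, or 49.1%, the strongest region of the gene was in a later intron. For the 634 genes with no other regions it could not be elsewhere.

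The level of HNF4a signal in later introns did not differ from that of other intronic regions by more than the spread over libraries. Values are reads per region divided by a factor for each library, called normalized reads, and longer regions hold more of them, with a Spearman correlation of 0.718 between value and length over the 6079 regions. The mean over the 6 libraries reached the median of the whole table, 17.4 normalized reads, in 2889 later-intron regions, and 76 were among the strongest 500 of the table. Per kb of length, the median log2 value of later introns minus that of first introns was -0.23, 0.26 and 0.17 in WT batches 1, 2 and 3 and 0.11, 0.29 and 0.22 in AMPK-CA. WT batch 1 thus had the lower level in later introns and the other 5 libraries the higher one. The mean difference was 0.14 ± 0.19 (SD, n = 6; exact two-sided sign-flip test, p = 0.156, where 0.031 is the smallest possible). Without division by length the mean difference was -0.02. Against introns of another gene the difference per kb was -0.02 ± 0.04 (SD, n = 6; exact two-sided sign-flip test, p = 0.281).

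The 10 strongest later-intron regions included those of receptors, a transporter and cytoskeletal genes, and the libraries of the genotypes overlapped at each when batches are set aside. Within batches, Lifr was higher in AMPK-CA in 3 of 3, and Insr, Tnfrsf8, Tmco4 and Slc6a13 were lower in 3 of 3. The highest lay in intron 4 of Lifr, the receptor of leukaemia inhibitory factor (chr15:7159371-7160694, 19.5 kb from the start), with 288, 218 and 210 normalized reads in WT and 289, 231 and 239 in AMPK-CA. Intron 4 of Tns1, which encodes tensin 1 of cell adhesions (chr1:74012866-74015001), had 234, 241 and 243 in WT and 222, 247 and 206 in AMPK-CA. Intron 2 of Insr, the insulin receptor gene (chr8:3255974-3257060), had 175, 233 and 205 in WT and 167, 209 and 193 in AMPK-CA.

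These 3 regions overlapped between genotypes, and their log2 differences between AMPK-CA and WT were 0.09 ± 0.17, -0.09 ± 0.17 and -0.11 ± 0.18 (SE; limma adjusted p = 0.933, 0.934 and 0.928). Of the other 7 among the strongest 10, the regions in Ccdc33, Tnfrsf8, Tmco4 and Col27a1 had log2 differences of -0.09, -0.13, -0.19 and -0.19. The regions in Zyx and in Fgfr3, a fibroblast growth factor receptor gene, had -0.35 and -0.43, and WT batch 1 was the highest library at each, with 372 and 334 normalized reads against 149 to 154 and 148 to 192 in the other WT libraries. Without batch 1 the log2 differences were -0.06 and -0.26. The last of the 10, in Slc6a13, had 189, 231 and 185 in WT and 145, 208 and 156 in AMPK-CA, lower in AMPK-CA in each batch, at a log2 difference of -0.26 ± 0.19 (limma adjusted p = 0.789).

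Of the 3268 genes, 2 had a later-intron region that passed the test between genotypes. The test was limma on log2(normalized reads + 1.80) with the labelled batch as a block, and a region was called at an adjusted p under 0.05 over the whole table. It called 23 regions of the table, or 0.0579%, and 2 of the 6079 later-intron regions, or 0.0329%. Without the block it called 0 of the 6079, with an unadjusted p under 0.05 at 107 regions higher and 26 lower in AMPK-CA. As these are bulk livers and input reads were not analysed here, fewer bound nuclei, less HNF4a per nucleus and a different number of DNA copies cannot be told apart.

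The signal rose in intron 19 of Mtor, which encodes the growth kinase that AMPK restrains (chr4:148472457-148472827, 24.1 kb from the start). The region had 9.34, 11.98 and 3.595 normalized reads in WT batches 1, 2 and 3 and 25.8, 35.9 and 47.2 in AMPK-CA. All 3 AMPK-CA values lay above all 3 WT values. The recovered reads behind them were few, 14, 16 and 2 in WT and 32, 37 and 34 in AMPK-CA. The means were 8.31 ± 4.29 and 36.3 ± 10.7 (SD, n = 3 each), with a log2 difference of 1.98 ± 0.40 (SE; limma adjusted p = 0.0039). The other 4 Mtor regions, at the promoter, in intron 1 and in 2 exons, had log2 differences of -0.60, 0.01, 0.32 and 0.56, and limma adjusted p was 0.850 or higher for each. The call was also made without batch 1 (log2 difference 2.32), and was lost without batch 2 (limma adjusted p = 0.144) and without batch 3 (log2 difference 1.38, limma adjusted p = 0.871).

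The signal fell in intron 2 of 4933406C10Rik (chr12:32929830-32930641, 23.6 kb from the start). The region had 69.4, 34.4 and 36.0 normalized reads in WT and 20.9, 7.76 and 12.5 in AMPK-CA, from 104, 46 and 20 and from 26, 8 and 9 recovered reads. Each WT value lay above each AMPK-CA value. The means were 46.6 ± 19.7 and 13.7 ± 6.67 (SD, n = 3 each), with a log2 difference of -1.66 ± 0.36 (SE; limma adjusted p = 0.014). The only other region assigned to this gene, at the gene end, had 43.6 ± 8.20 in WT and 64.7 ± 9.18 in AMPK-CA (log2 difference 0.56, limma adjusted p = 0.676). The call in intron 2 was lost when any 1 batch was left out, with limma adjusted p of 0.139, 0.583 and 0.170 without batches 1, 2 and 3.

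**Figure D1:**
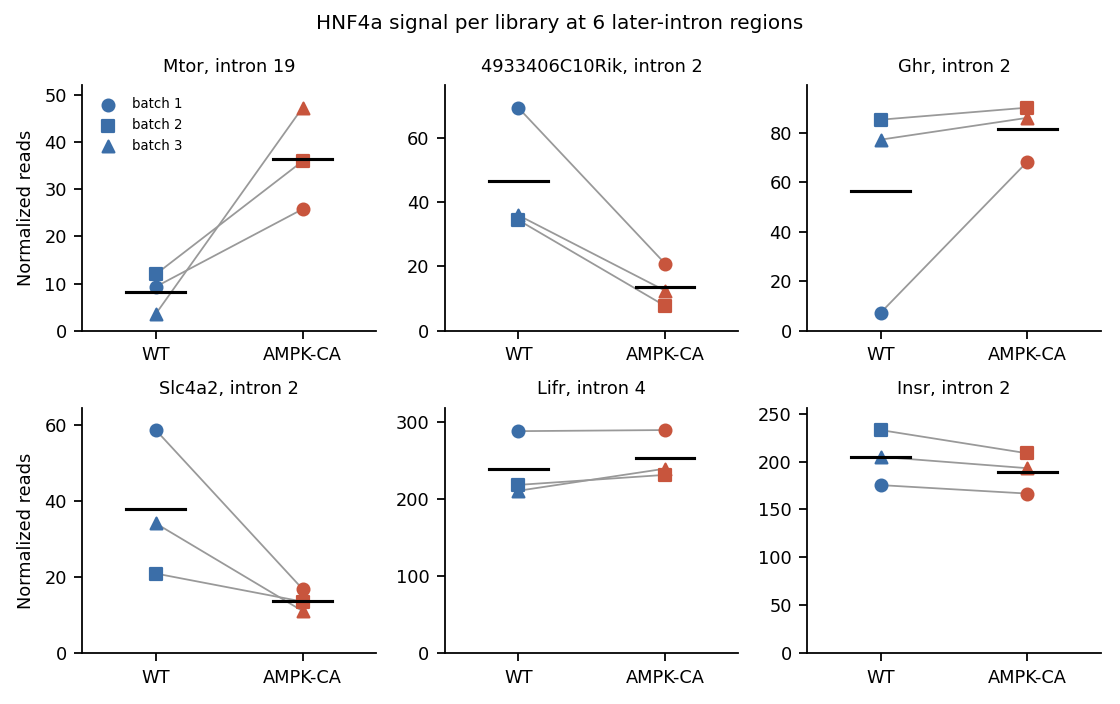
Normalized reads (y axis) in each library at 6 later-intron regions, by genotype, with grey lines joining the libraries of a batch and black bars at the mean. The Mtor region is higher in each AMPK-CA library, with 25.8 to 47.2 against 3.595 to 11.98, the 4933406C10Rik and Slc4a2 regions are lower in each, WT batch 1 stands apart at Ghr with 7.34, and the Lifr and Insr libraries overlap.

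Below the threshold, regions were ranked by p where the 3 batches gave differences of 1 sign and the mean reached the table's median. Lack of overlap between genotypes is stated for single regions only. In an exact permutation test of 3 libraries against 3 it has p = 0.1, the smallest possible. The share of the whole table without overlap is not given here. After Mtor the smallest p of the higher regions was in intron 2 of Ghr, the growth hormone receptor gene (chr15:3451994-3452532), with 7.34, 85.4 and 77.3 normalized reads in WT and 68.4, 90.2 and 86.1 in AMPK-CA. WT batch 1 stood apart from the other 5 libraries there. Its log2 difference of 1.06 ± 0.27 (SE; limma adjusted p = 0.122) was 0.12 without batch 1. Intron 2 of Cux2, a homeobox gene known in liver for its female-biased expression in the mouse, had 12.01, 0.75 and 12.6 in WT and 45.1, 19.4 and 15.3 in AMPK-CA, without overlap (log2 difference 1.69 ± 0.44, limma adjusted p = 0.144).

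The remaining 7 of the 10 higher regions kept a difference of at least 0.62 without batch 1. Intron 9 of Ttc7b had 13.3, 12.7 and 8.99 in WT and 33.8, 28.1 and 36.1 in AMPK-CA, and intron 3 of Tacc2, a centrosome gene, had 12.7, 7.49 and 8.99 against 26.6, 27.2 and 26.4. The genotypes did not overlap at either, and limma adjusted p was 0.258 and 0.321. Intron 4 of Creb3l4, a transcription factor gene of the endoplasmic reticulum, had 33.4, 25.5 and 21.6 in WT and 62.8, 51.4 and 51.4 in AMPK-CA, also without overlap (limma adjusted p = 0.315). The regions in Wdr7, Cops7b, a subunit of the COP9 signalosome, Cgrrf1 and Ces1f, a carboxylesterase, had log2 differences of 1.52, 1.27, 1.08 and 1.07, that of Ces1f being 0.62 without batch 1.

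On the lower side the region closest to the threshold lay in intron 2 of 8030423F21Rik (chr5:52610589-52611919), with 134, 65.1 and 79.1 normalized reads in WT and 53.1, 26.2 and 48.6 in AMPK-CA (log2 difference -1.08 ± 0.27 (SE), limma adjusted p = 0.067). The lowest WT value lay above the highest AMPK-CA value. Intron 2 of Slc4a2, an anion exchanger of bile duct and other epithelia, had 58.7, 20.97 and 34.2 in WT and 16.9, 13.6 and 11.1 in AMPK-CA (limma adjusted p = 0.315). Intron 6 of Mia3, which serves the export of collagen and large lipoproteins from the endoplasmic reticulum, had 69.4, 29.2 and 66.5 against 36.2, 23.3 and 12.5, with overlap. The regions in Acss2os, Pqlc2, Cdc14a, Qpct, Ttc39b and Gstp1, a glutathione transferase gene, had log2 differences between -0.81 and -1.21, and none passed the threshold. Without batch 1 that of Ttc39b was -0.43.

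**Figure D2:**
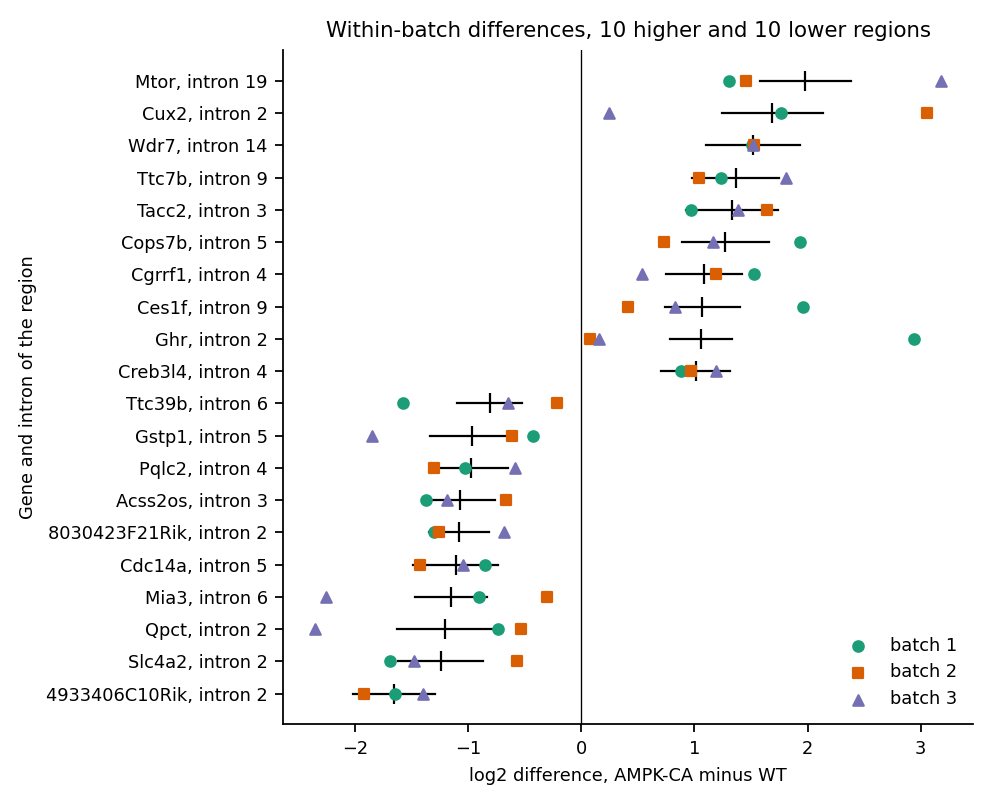
Log2 differences between AMPK-CA and WT (x axis) at the 10 higher and 10 lower later-intron regions with the smallest p, with 1 point per batch, the fitted value as a tick and its SE as a line. The 3 Mtor points lie at 1.31, 1.45 and 3.18, those of Ghr at 2.94, 0.08 and 0.17, and those of 4933406C10Rik at -1.65, -1.92 and -1.40.

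Across the whole class the signal leaned towards AMPK-CA, mostly in batch 1. The median log2 difference over the 6079 later-intron regions was 0.13, beside 0.01 over the whole table, and 62.0% of them were above 0, beside 50.6%. Regions in an intron of another gene had a like lean, with a median of 0.11 and 61.3% above 0, as had intergenic regions, with 0.09 and 58.5%. Without batch 1 these medians were 0.05 and -0.003. Scaled to the total of all regions, the medians of later introns and of the whole table were 0.18 and 0.06. By median-of-ratios factors they were 0.10 and -0.02. With the block, 320 later-intron regions had an unadjusted p under 0.05 and were higher in AMPK-CA, or 5.26% beside 4.11% of the table, and 89 were lower, or 1.46% beside 3.16%. Without the block the shares were 1.76% higher beside 1.46%, and 0.428% lower beside 0.995%. With all 3 within-batch differences above 0 there were 1131 regions, or 18.6% beside 13.5%, and with all 3 below 0 there were 575, or 9.46% beside 14.6%.

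Without batch 1 the median log2 difference was 0.04, beside -0.01 over the table, and the unadjusted counts were 268 higher, or 4.41% beside 3.6%, and 166 lower, or 2.73% beside 3.24%. The median log2 value over later-intron regions was 4.04, 4.31 and 4.31 in WT and 4.22, 4.34 and 4.31 in AMPK-CA. The WT library of batch 1 was the lowest, and the other 5 lay between 4.22 and 4.34.

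**Figure D3:**
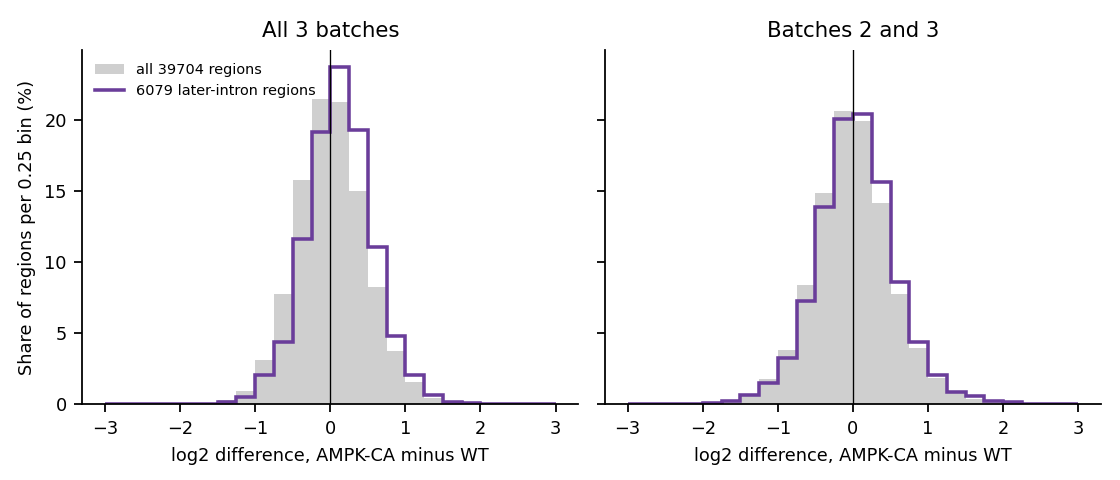
Share of regions (y axis, percent per bin) by log2 difference between AMPK-CA and WT (x axis), for the 6079 later-intron regions as a line and the 39704 regions of the table as grey fill. With all 3 batches the line sits to the right of the fill, at medians of 0.13 and 0.01, and with batches 2 and 3 the medians are 0.04 and -0.01.

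The mean within-batch difference of these medians was 0.07 ± 0.10 (SD, n = 3), from 0.18, 0.03 and 0.01 in batches 1, 2 and 3 (exact two-sided sign-flip test, p = 0.25, the smallest that 3 pairs allow). The share of reads in later introns differed by 2.59, 0.36 and 0.41 percentage points (mean 1.12 ± 1.27, SD, n = 3; exact sign-flip test, p = 0.25). Set against first introns, the genotype difference of later introns was larger by 0.30, 0.09 and 0.10 in log2 units in the 3 batches, and set against promoters by 0.80, 0.07 and 0.10. Both were above 0 in 3 of 3 batches, with means of 0.16 ± 0.12 and 0.33 ± 0.41 (SD, n = 3; exact sign-flip test, p = 0.25 for each). In batch 3 both rest on the same step. The WT median was 4.31 in later introns, first introns and promoters alike, and the AMPK-CA median was 4.31, 4.21 and 4.21. Per kb, the genotype differences in batches 2 and 3 were 0.05 and 0.02 in later introns. They were 0.02 and -0.03 in first introns and -0.07 and -0.13 at promoters. The classes lay at different distances from the start, and the contrasts between classes were not matched for distance. These 6 comparisons of library values, levels included, had unadjusted p of 0.156 to 0.281, and 4 of them had only 3 pairs and could not reach a lower p.

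Later-intron regions varied among themselves with their distance from the start, chiefly in WT batch 1. Within 1 kb of the start its median log2 value over 94 regions was 4.76, the highest of the 6 libraries, and beyond 100 kb, over 642 regions, it was 3.72, the lowest. The other WT libraries went from 3.93 and 4.17 to 4.46 and 4.31, and the AMPK-CA libraries from 4.26, 3.99 and 4.15 to 4.16, 4.47 and 4.41. Beyond 100 kb the within-batch differences were 0.45, 0.01 and 0.10, and within 1 kb they were -0.51, 0.05 and -0.02. The median log2 difference per region was -0.24 within 1 kb, 0.07 at 1 to 5 kb, 0.10 at 5 to 20 kb, 0.15 at 20 to 50 kb, 0.14 at 50 to 100 kb and 0.22 beyond 100 kb, where it was 0.05 without batch 1.

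WT batch 1, the library with the most reads, was the lowest of the 6 in 2507 later-intron regions, or 41.2%, beside 30.8% of the whole table, and in 57.3% of those beyond 100 kb. It was the highest in 57.4% of those within 1 kb. First-intron regions had a like layout, with a median in WT batch 1 of 5.02 within 1 kb and 3.56 beyond 100 kb. By intron number the median log2 difference ran from 0.10 in intron 2 over 0.13 in intron 3 to 0.19 in introns 21 and higher, and without batch 1 it lay between 0.01 and 0.09.

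**Figure D4:**
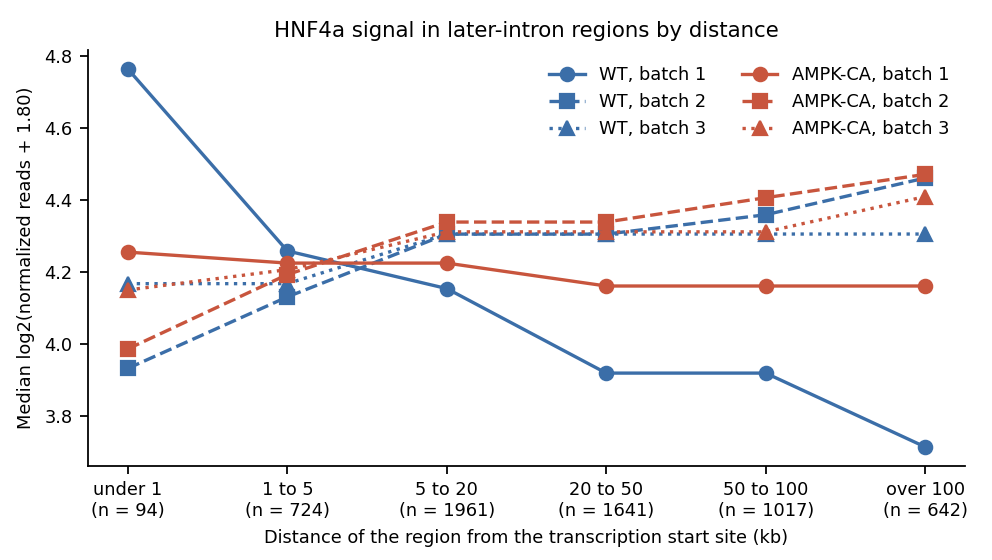
Median log2(normalized reads + 1.80) over later-intron regions (y axis) by distance from the transcription start site (x axis), with 1 line per library. WT batch 1 runs from 4.76 down to 3.72, while the other 5 lines stay between 3.93 and 4.47.

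The genes with the most later-intron regions included several of transcription factors. Nfia, a nuclear factor I gene, had 21, at 8.46 to 227.56 kb from its start, Zbtb16, a zinc finger gene, had 18, and Tcf7l2, an effector of Wnt signalling, had 16. Foxp1, Mad1l1, Nfib, Pard3, Tns1 and Ttc7 had 13 each. Arhgef3 had 12, as had 5 other genes, so the tenth place is a tie. In Nfia 15 of the regions had a higher and 6 a lower fitted value in AMPK-CA, with log2 differences of -0.29 to 0.85 and a median of 0.20, or 0.11 without batch 1. In Tcf7l2 13 were higher and 3 lower, and in Zbtb16 4 were higher and 14 lower, at a median of -0.18.

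None of the 145 regions of the 10 genes named was called by limma or edgeR, where limma called 0.0579% of the table. An unadjusted p under 0.05 was reached at 4 higher and 2 lower, or 2.76% and 1.38%. Beside this stand 5.26% and 1.46% of the later-intron regions and 4.11% and 3.16% of the table. The strongest Nfia region, in intron 2 (chr4:97838623-97839322), had 40.0, 89.9 and 53.9 normalized reads in WT and 60.4, 92.2 and 52.8 in AMPK-CA. The strongest Zbtb16 region (chr9:48729415-48729995) had 65.4, 77.1 and 50.3 against 47.5, 64.0 and 62.5. The genotypes overlapped at both. Within a gene the regions differed widely in strength, with means over the 6 libraries of 7.76 to 64.9 in Nfia and of 8.08 to 61.1 in Zbtb16. In Mad1l1, a spindle checkpoint gene, 1 region in intron 13 reached 122 normalized reads where the median of the 13 was 17.4.

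**Figure D5:**
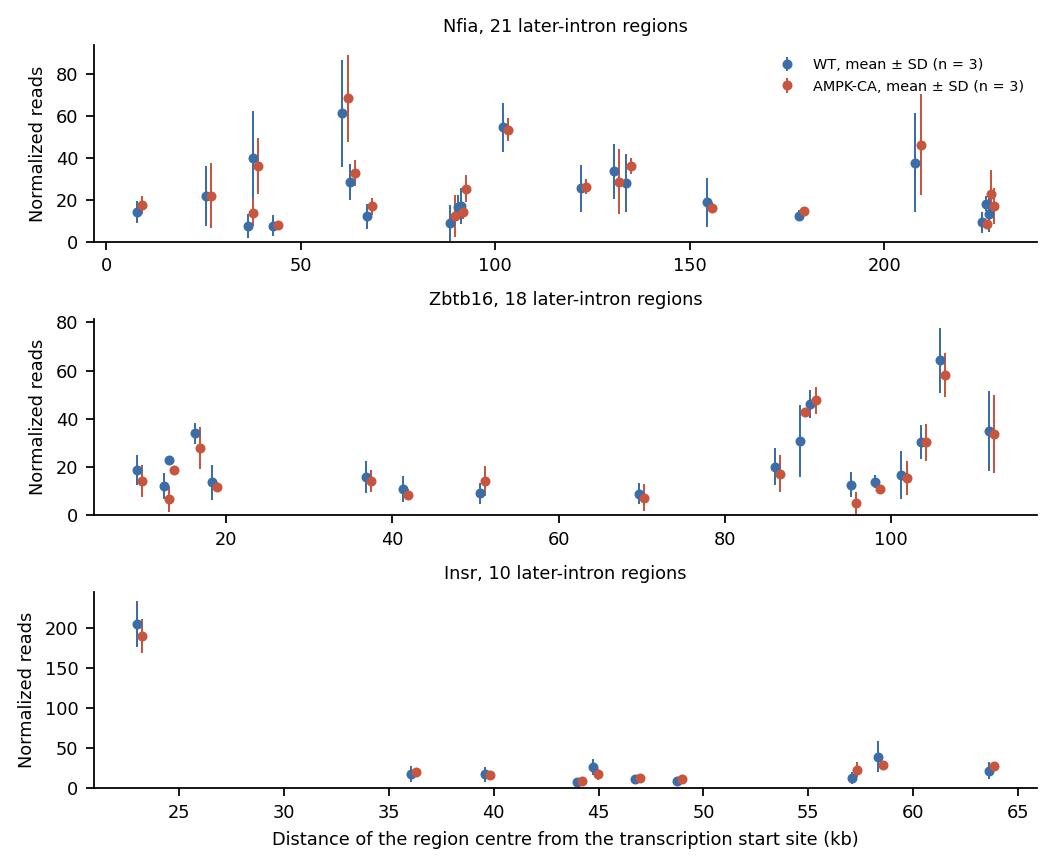
Normalized reads (y axis, mean ± SD, n = 3 libraries per genotype) at each later-intron region of Nfia, Zbtb16 and Insr by distance from the transcription start site (x axis). Values in Nfia span 7.76 to 64.9 as means over libraries, and the first Insr region, at 23.1 kb, stands at 204 and 189 where the next strongest has a mean of 34.1.

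Genes of 20 lists held 826 later-intron regions in 351 genes. Of these regions 1 was called by limma, 1 by edgeR and 0 by DESeq2. Over the 39704 regions of the table the calls were 23, or 0.0579%, by limma, 24 by edgeR and 1 by DESeq2. At such a share a list without a call does not set its genes apart. An unadjusted p under 0.05 was reached at 24 of the 826 higher and 9 lower in AMPK-CA, or 2.91% and 1.09%. Beside this stand 5.26% and 1.46% of the later-intron regions and 4.11% and 3.16% of the table. Below, means ± SD are normalized reads over 3 libraries in WT and then AMPK-CA, a single value after a gene is its log2 difference on the deposited scale, and lists were counted, not tested. The counts of higher and lower regions can be set against the 62.0% above 0 in the whole class.

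Genes of AMPK, mTOR and insulin signalling had 56 later-intron regions in 18 genes, of which 34 had a higher and 22 a lower value in AMPK-CA, with 1 call, Mtor. The median log2 difference was 0.20, and -0.05 without batch 1. Among subunits of AMPK itself, intron 4 of Prkab1, a beta subunit, had 16.01, 5.24 and 3.595 normalized reads in WT and 20.1, 26.2 and 25.003 in AMPK-CA. The groups did not overlap, with a log2 difference of 1.53 ± 0.44 (SE; limma adjusted p = 0.258). Intron 2 of Prkaa2, a catalytic subunit, had 3.34, 12.7 and 8.99 against 11.3, 12.6 and 8.33, with overlap. The regions of Prkag2, a gamma subunit, had log2 differences of 0.20 and 0.93, and 0.36 and 0.91 without batch 1. Neither had an unadjusted p under 0.05. The Prkaa2 and Prkag2 regions were weak, with means over the 6 libraries of 9.54 and of 6.75 to 10.9. All lay in the lowest 25% of the table, which ends at 11.8 normalized reads.

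Intron 3 of Tsc1, which restrains mTOR, had 7.34, 8.24 and 3.595 in WT and 12.9, 20.4 and 11.1 in AMPK-CA, without overlap (log2 difference 1.03, limma adjusted p = 0.672). Its mean over the 6 libraries, 10.6, also lay in the lowest 25% of the table. Insr had 10 later-intron regions, of which the strongest is described above and the next had a mean of 34.1; 7 were higher and 3 lower. Intron 2 of Foxo3, a transcription factor gene downstream of insulin, had 211, 136 and 98.9 in WT and 137, 139 and 106 in AMPK-CA, with overlap.

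The gene of HNF4a itself had 4 later-intron regions and no call. Intron 3 had 33.4, 2.25 and 14.4 normalized reads in WT and 23.3, 16.5 and 20.8 in AMPK-CA, and the stronger of the pair in intron 5 had 20.7, 27.0 and 25.2 against 26.6, 44.6 and 22.2. Log2 differences were 0.73, 0.29, 0.50 and -0.06 in order from the start, and 1.33, 0.26, 0.19 and 0.02 without batch 1. Limma adjusted p was 0.730 or higher. The list of 35 liver transcription factors held 99 later-intron regions in 18 genes, 62 higher and 37 lower with 0 calls, at a median of 0.07, or 0.03 without batch 1; with an unadjusted p under 0.05 there were 0 higher and 1 lower. Its strongest were in Hlf, a clock-output factor, at 162 ± 26.5 in WT and 163 ± 17.3 in AMPK-CA, and in Nfib at 93.9 ± 23.8 and 86.5 ± 20.8 (SD, n = 3 each).

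Nuclear receptor and coregulator genes held 72 regions, 49 higher and 23 lower, with 0 calls and an unadjusted p under 0.05 at 4 higher and 1 lower. Ppara, the receptor that drives fatty acid oxidation, had 7 of them, the strongest in intron 2 (chr15:85771087-85772565) with 80.7, 158 and 146 in WT and 126, 203 and 128 in AMPK-CA. Intron 6 of Rxra, the shared partner of many such receptors, had 80.3 ± 8.12 and 84.8 ± 6.17. The median log2 difference of this list was 0.19, and 0.03 without batch 1.

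Lists of lipid genes had no call. Fatty acid oxidation and ketone synthesis held 22 regions, 14 higher and 8 lower, at a median of 0.16, with 0 at an unadjusted p under 0.05. Its strongest was intron 6 of Acadm, a mitochondrial acyl-CoA dehydrogenase, at 50.7 ± 6.82 in WT and 49.2 ± 9.55 in AMPK-CA, and Crot, which serves the peroxisome, had 37.4 ± 4.39 and 46.3 ± 8.75. Fatty acid and triglyceride synthesis held 39, 21 higher and 18 lower, and its Mogat2 and Dgat2 regions, in acyltransferase genes, had log2 differences of 0.31 and -0.30, or 0.45 and -0.12 without batch 1. Intron 2 of Mogat2 had 96.7, 76.4 and 71.9 in WT and 99.0, 101 and 103 in AMPK-CA, which do not overlap (limma adjusted p = 0.803).

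Cholesterol synthesis and LDL uptake held 42 regions, 21 in each direction. Its strongest was intron 2 of Lrp1, a lipoprotein receptor, with 241, 149 and 146 in WT and 115, 139 and 163 in AMPK-CA; the log2 difference was -0.33, and 0.03 without batch 1. Abca1, the cholesterol exporter, had 99.7 ± 13.1 and 108 ± 33.5. Lipid uptake, droplets and lipases held 40 regions, 26 higher and 14 lower, led by Slc27a5, a bile acid and fatty acid CoA ligase, at 99.0 ± 17.97 and 86.9 ± 11.2, and Mgll, a lipase, at 89.5 ± 10.6 and 86.1 ± 16.4. Lipoprotein and plasma carrier genes held 17, 8 higher and 9 lower, with Apob, the apolipoprotein of very-low-density lipoprotein, at 89.1 ± 3.42 and 74.97 ± 8.98 and Apoa2 at 48.4 ± 10.2 and 36.1 ± 9.74.

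Lists of other hepatocyte functions had no call either. Bile acid genes held 29 regions, 20 higher and 9 lower, at a median of 0.21, or -0.04 without batch 1. Intron 3 of Akr1d1, a reductase of bile acid synthesis, varied more between batches than between genotypes, with 100, 246 and 162 in WT and 90.9, 228 and 179 in AMPK-CA. Urea cycle and amino acid genes held 78 regions, 48 higher and 30 lower, led by Shmt1 and Gldc of one-carbon and glycine metabolism, with log2 differences of 0.01 and 0.17. The Shmt1 region had 189, 72.6 and 77.3 in WT and 103, 114 and 91.7 in AMPK-CA, with WT batch 1 apart, and without batch 1 its difference was 0.44. Sugar metabolism held 39, 24 higher and 15 lower. Its strongest, intron 2 of Gpd1, which makes glycerol 3-phosphate, had 185, 130 and 88.1 in WT and 81.3, 124 and 63.9 in AMPK-CA, at a log2 difference of -0.56 ± 0.22 (limma adjusted p = 0.542) and -0.26 without batch 1.

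Cytochrome P450 and conjugation genes held 70 regions, 41 higher and 29 lower, at a median of 0.13, or -0.12 without batch 1. Intron 2 of Cyp4v3, a fatty acid hydroxylase, had 92.7, 99.6 and 66.5 in WT and 101, 114 and 163 in AMPK-CA, without overlap (log2 difference 0.53 ± 0.22, limma adjusted p = 0.587), and Gstt1 had 82.8 ± 17.3 and 84.1 ± 10.6. Coagulation and complement held 47, 32 higher and 15 lower, led by Vtn, vitronectin, at -0.31 and Klkb1, plasma prekallikrein, at 0.16, or 0.27 without batch 1. Membrane transporters held 68, 41 higher and 27 lower, led by Slc6a13 and, next, Slc25a42, a mitochondrial coenzyme A carrier, at -0.08, or 0.02 without batch 1.

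No region of the lists of growth hormone, circadian, Wnt, autophagy and cell cycle genes was called. Growth hormone, IL-6 and STAT genes held 44 regions, 34 higher and 10 lower, at a median of 0.20, or 0.09 without batch 1, with Lifr and Fgfr3 the strongest. Circadian genes held 13, 6 higher and 7 lower, led by intron 7 of Per2 with 226, 182 and 151 in WT and 196, 184 and 142 in AMPK-CA, and Usp2, a deubiquitinase, at 0.53. Wnt genes held 19, 13 higher and 6 lower, with Tcf7l1 at 0.05 and Lrp6 at -0.03, or -0.12 and 0.04 without batch 1. Autophagy and lysosome genes held 19, 11 higher and 8 lower, with Sqstm1, an autophagy receptor, at 0.25, or 0.16 without batch 1, and Atg7 at 0.18. Cell cycle genes held 8, 5 higher and 3 lower. Intron 5 of Cdk1, the mitotic kinase, had 75.4, 74.1 and 73.7 in WT and 96.6, 114 and 86.1 in AMPK-CA, which do not overlap (limma adjusted p = 0.747), and Rb1 stood at 0.45, or 0.74 without batch 1 and -0.04 without batch 3.

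Genes that mark other liver cells held 10 later-intron regions in 7 genes, 2 higher and 8 lower in AMPK-CA. There were 0 calls, and an unadjusted p under 0.05 at 0 higher and 1 lower. The median log2 difference was -0.30, and -0.19 without batch 1, where the class as a whole had 0.13. The strongest lay in Stab1, a scavenger receptor of sinusoidal endothelium, with 124, 87.6 and 61.1 normalized reads in WT and 82.1, 70.8 and 62.5 in AMPK-CA, which overlap. HNF4a signal at these genes does not measure how many such cells a liver held. The part of these cells in the differences above was not tested.

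The highest intron number was 83, in Adgrv1, a very large adhesion receptor gene, where 3 regions lay between 301 and 307 kb from the start. Their means were 70.0 ± 26.5, 20.02 ± 5.25 and 43.2 ± 26.8 in WT and 58.4 ± 17.3, 17.7 ± 1.52 and 41.8 ± 13.8 in AMPK-CA. The farthest regions were in Ptprd, in Dpyd, the pyrimidine-degrading dehydrogenase gene, at 564 kb, and in Adgrl3 at 547 kb. The Dpyd region had 8.005, 43.4 and 28.8 in WT and 33.0, 37.8 and 40.3 in AMPK-CA, with WT batch 1 far below the rest, and its log2 difference of 0.70 was 0.14 without batch 1.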

How the data were processed

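HNF4a ChIP-seq signal in mouse liver was analysed for 6 libraries, 3 per genotype. The submitters' processing notes name BWA, deepTools, FastQC, HOMER, MACS2, Picard, SAMtools, SICER and Trim Galore, with neither roles nor versions. The deposited signal is a read number per region divided, by the authors, by a factor for each library; in every library 100% of values were whole multiples (tolerance 1e-09) of 1 read, so whole reads were recovered. Such scaling can remove a change shared by most regions, depending on how the factor was set, and reads outside regions are unknown. How regions were selected: not given in the sources used here.

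Members and gene lists were chosen with earlier results of these data known. Limma 3.58.1 (R 4.3.3; mean-variance trend, robust) was fitted to log2(value + 1.80) over 39704 regions, with a pseudocount of 0.1 times the median of non-zero values, labelled batch as a block and Benjamini-Hochberg adjustment. Such fold changes understate changes of weak regions. The labels make the batch a pairing: deviations of same-batch libraries from genotype means correlated over later introns at 0.47, 0.46 and 0.04. Without this block 0 members were called. On recovered reads, edgeR 4.0.16 with the block called 2 members (24 regions in all), without it 0, and DESeq2 1.42.0 with it 0 (1 in all). Library values were compared by exact permutation. Scripts were tested on simulated data.

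Named regions were, among members: called regions; the 10 smallest p in each direction where the 3 batches gave differences of 1 sign and the mean reached the table's median; the 10 strongest; the strongest of the 10 genes with the most members; the 2 strongest genes of each of 20 lists; and the 3 highest intron numbers and 3 farthest regions. Some of what this takes is not reported here. Per2, Adam12, Socs2, Hnf4a, AMPK subunit genes, Tsc1 and Thrb were added after their values were seen. The planned motif search in region sequences was not run, for want of a genome. Nothing in the labels beyond separate sample codes says that libraries were separate animals, so p-values measure the spread between these libraries.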

Additional observations from a re-analysis of the deposited data

How the results depend on the processing

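The count of called later-intron regions, 2 with the batch block, was 2 under both other pseudocounts, the filter on low values, both other scalings and edgeR with the block. It was 0 without the block, 0 by limma without the trend (303 higher and 106 lower at unadjusted p under 0.05), 0 by DESeq2 with the block (72 and 25) and 0 by edgeR without the block (82 and 28), and from 0 to 1 when 1 batch was left out. Without replicate 1 and without the block it was 1; this setting and edgeR without the block were added after the data were seen. The cause of the lost calls was not tested, except that a batch left out also leaves fewer samples. Over the whole table the count of 23 became 0, 0, 1 and 0 under the first 4 of these, and 12, 2 and 7 without batches 1, 2 and 3. The level of later against first introns reversed from 0.14 to -0.019 when values were not divided by length, and ran from 0.07 to 0.24 with a batch left out. The level against introns of another gene, -0.019, ran from -0.033 to 0.00047 with a batch left out, reversing without batch 1. The other comparisons of library values kept their direction under the alternatives run, in a design whose smallest p is 0.25. For 79 single named regions 1041 values kept their direction and side of the threshold and 14 lost the call (Mtor and 4933406C10Rik). At 21 regions, none of them called, 51 values changed sign, 12 of them in the blocked fit without batch 1. With a batch left out, with or without the block where that was batch 1, the log2 difference ran from -0.35 to 0.021 at Zbtb16, -0.089 to 0.70 at Foxp1, -0.21 to 0.015 at Nfib, -0.23 to 0.14 at Ttc7, -0.054 to 0.31 at Arhgef3, -0.089 to 0.14 at Hlf, -0.30 to 0.059 at Foxo3, -0.29 to 0.17 at Acadm, -0.27 to 0.15 at Mgll and -0.58 to 0.028 at Lrp1. It ran from -0.052 to 0.16 at Abca1, -0.12 to 0.020 at Akr1d1, -0.31 to 0.44 at Shmt1, -0.062 to 0.21 at Gstt1, -0.22 to 0.015 at Slc25a42, -0.13 to 0.40 at Tcf7l1 (-0.12 without batch 1), -0.28 to 0.15 at Lrp6 (0.039 without batch 1), -0.037 to 0.74 at Rb1, -0.045 to 0.39 at Atg7, and -0.30 to 0.064 and -0.32 to 0.51 at 2 Adgrv1 regions. The Gstt1 value was -0.042 without batch 1. Sign also changed under median-of-ratios scaling at Hlf (-0.010) and Shmt1 (-0.018), under total scaling at Acadm (0.0058), Akr1d1 (0.025) and Lrp6 (0.024), and under the larger pseudocount at Shmt1 (-0.0074). It changed under edgeR with the block at Shmt1 (-0.027), under edgeR without it at Shmt1 (-0.15), Lrp6 (0.0035) and Adgrv1 (-0.019), and under DESeq2 at Hlf (-0.015) and Shmt1 (-0.036). Depth limits weak regions most: the median member held 10 to 24 reads per library, and the median coefficient of variation was 42.6% in WT and 27.98% in AMPK-CA.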

Other observations

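Each later-intron region of this paragraph was without overlap between genotypes, which in an exact permutation test of 3 libraries against 3 has p = 0.1. None of them passed the threshold. They were picked after their values were seen and stand for no list. The share of the whole table without overlap is not given here. Intron 2 of Dbp, a clock-output transcription factor, had 32.0, 20.2 and 17.98 normalized reads in WT and 12.1, 9.70 and 2.78 in AMPK-CA, without overlap (limma adjusted p = 0.315). Intron 5 of Cyp2c54, a cytochrome P450 gene with close paralogs, had 12.7, 8.99 and 10.8 in WT and 4.02, 1.94 and 0 in AMPK-CA (limma adjusted p = 0.565). That region is weak, as 1 read is 0.805, 0.970 and 1.39 normalized reads in AMPK-CA batches 1, 2 and 3. Intron 2 of Igf1, the growth factor made by liver under growth hormone, had 14.0, 32.2 and 21.6 against 36.2, 37.8 and 50.01, also without overlap (limma adjusted p = 0.514). Intron 2 of Apoa4, an apolipoprotein gene, had 13.3, 12.7 and 7.19 against 32.2, 19.4 and 22.2 (limma adjusted p = 0.541).

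For 165 later-intron regions, or 2.71%, the deposited distance is negative, so that the region lies before the start site from which the distance was taken while its annotation places it in a later intron of the same gene. Among them is a region in intron 2 of Thrb, a thyroid hormone receptor gene, which was named outside the rules and does not stand for the 165. It had 2.67, 0.75 and 7.19 normalized reads in WT and 12.1, 15.5 and 12.5 in AMPK-CA, without overlap (limma adjusted p = 0.486). The region is weak, and the 0.75 in WT batch 2 is 1 read. Intron numbers and distances of regions with a negative distance refer to different transcripts of a gene.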
